A study of Mus musculus with 2 samples.

Results

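The cells described here are the stromal cells of IL-1β-treated lung organoids, read from droplet-based single-cell RNA sequencing. They were chosen by their counts of unique molecular identifiers (UMIs, one per captured transcript). A barcode was a stromal cell when the UMIs of Col1a2, Col3a1, Sparc and Dcn summed to more than 3 times those of Epcam, Cdh1, Cldn3, Cldn7 and Krt18, and the UMIs of Mki67, Top2a, Cdk1, Birc5 and Ube2c summed to at most 2. This rule found 480 of the 3066 barcodes of the IL-1β library (15.7%, 95% Clopper-Pearson interval 14.4 to 17.0) among 5167 barcodes of the series. The same rule found 852 stromal cells among the 2101 barcodes of the control library (40.6%, 38.4 to 42.7). In both groups, AT2 cells, the surfactant-producing epithelial cells of the alveolus, came from Sftpc-CreERT2;R26RTomato mice given tamoxifen, on the C57BL/6 strain, and were grown together with stromal cells, for 2 weeks by the labels of these samples. Control organoids received PBS and the others IL-1β, and the sources give its dose and the culture time inconsistently. The Sftpc promoter drives the Cre, so the Tomato allele marks AT2 cells and not the stromal cells, which were cultured lung cells taken negative for CD31, EpCAM and CD45. The sources used here do not say how many animals or culture wells each library pooled. Each condition had 1 library, so no test, SD or p-value can be given. Intervals in the text are 95% and cover counting error only, and an effect of the library and one of the treatment cannot be told apart.

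Lung stromal cells, mostly fibroblasts in such cultures, lay down and remodel extracellular matrix and secrete growth factors that alveolar epithelial cells need to form organoids. IL-1β binds the receptor Il1r1 and acts through MyD88, NF-kB and MAP kinases with AP-1, a route known in fibroblasts for switching on cytokines, prostaglandin synthesis and secreted matrix metalloproteinases. The metalloproteinases cleave collagens, proteoglycans and elastin, and the TIMPs inhibit them.

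The 480 IL-1β stromal cells held 9855719 UMIs, with a lowest, median and highest total per cell of 4987, 14518.5 and 122125. The 852 control stromal cells held 14551443 UMIs, with 4605, 15197 and 94792. The median number of genes per cell was 3562.5 and 3930. Depth was therefore close in the groups compared, whereas mitochondrial genes took 6.70% of UMIs in IL-1β and 5.40% in control stromal cells, and ribosomal-protein genes took 15.4% and 18.7%. Of the 480 IL-1β cells, 449 had a stromal sum more than 10 times the epithelial sum and 7 lay between 3 and 4 times, while 25 barcodes just outside lay between 2 and 3 times. In control, 769 of the 852 cells were past 10 times, 32 lay between 3 and 4 times and 61 just outside lay between 2 and 3 times. Another 6 IL-1β barcodes passed the first condition and not the limit on cell cycle genes (1.23% of those passing it, 0.454 to 2.67), against 20 in control organoids (2.29%, 1.41 to 3.52). The libraries shared 11 barcode sequences, of which 1 was an IL-1β and 6 were control stromal cells, and none was a stromal cell in both.

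Levels are given as the gene's UMIs summed over the cells of a group per 1000000 UMIs (CPM). Transcripts were tagged at their 3' end, so these values are not divided by gene length. Of the 5 genes given as markers, Sparc, a matricellular glycoprotein, stood at 3933 CPM in IL-1β and 3804 in control stromal cells, and Col1a2, a chain of type I collagen, at 1429 and 1369. Both belong to the rule, as do Dcn (5645 and 259 CPM) and Col3a1 (909 and 1573 CPM), so these values are tied to the selection. A Dcn UMI was seen in 97.5% of IL-1β and 32.3% of control stromal cells. Among barcodes whose stromal sum was at most 3 times the epithelial sum it was seen in 75.9% and 8.30%. Dcn thus entered the stromal sum unequally in the IL-1β and control libraries, and the rule was not tried without it. Genes outside the rule showed the same cell type: Col1a1 was at 1347 and Lum at 623 CPM in IL-1β stromal cells, against 25.3 and 24.2 in the 2580 IL-1β barcodes whose stromal sum was at most 3 times the epithelial sum. These are called epithelial below, although 164 of them, and 181 of the 1229 in control, had more stromal than epithelial rule UMIs, and without those 164 the levels were 22.97 and 24.17 CPM. Pdgfra, a fibroblast receptor, was at 131 CPM and Vim at 745. The label of stromal cells thus held for most of these barcodes, with 4 barcodes rich in endothelial genes, 3 rich in AT1 genes and without Col1a2 or Col3a1, and 29 cells of a cluster with AT2 genes, all described below, as exceptions. Outside the 3 AT1-rich barcodes, 11 cells had no UMI of Col1a2 or Col3a1, a count that can overlap the other exceptions. Of the given markers, Mmp12 had no UMI in 246 of the 480 cells, which sets no limit on the cells that express it.

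Other cell types were looked for with their own markers. Of 16 macrophage and leukocyte genes, 7 had a UMI in IL-1β stromal cells, and Lyz2, which AT2 cells also express, made up 20875 of their 21058 UMIs (2137 CPM summed, 829 in control). Ptprc, Adgre1, C1qa, C1qb, C1qc, Laptm5, Mrc1, Marco and Cd52 were at 0. The 7 endothelial genes summed to 698 UMIs (70.8 CPM), Egfl7 leading with 265, against 155 UMIs (10.7 CPM) in control, where Cdh5, Cldn5 and Emcn were at 0. Part of these UMIs sat in few cells: 4 barcodes held 349 of the 356 UMIs of Cdh5, Cldn5, Emcn and Tie1, together with 594 UMIs of Dcn, 526 of Sparc, 1 of Col3a1 and 0 of Col1a2. The same 4 barcodes held 46 of the 71 Pecam1 UMIs but only 105 of the 265 Egfl7 UMIs. Mesothelial genes summed to 8 UMIs. AT2 genes summed to 5969 CPM in IL-1β and 5269 CPM in control stromal cells, led by Sftpc at 4149 and 4187 CPM, which is 7.14% and 4.84% of its level in the epithelial barcodes of the same library. That percentage of a gene's epithelial level, which rests on Sftpc alone, was taken as what RNA from epithelial cells could add to a stromal value. Among the genes named below with their levels and with at least 10 UMIs in IL-1β cells, it came to 10% or more of the IL-1β value for Ly6i (85.2%), Ccl5 (48.1%), Tnfrsf11b (46.3%), Bmp4 (44.4%), Ccl20 (36.4%), Tnip3 (35.8%), Ifit3 (28.5%), Tmsb4x (26.9%), Fbln5 (24.95%), Hbegf (24.6%), Isg15 (20.9%), Lcn2 (12.6%), Mylk (11.6%), Timp3 (11.1%) and Areg (10.3%). Genes with fewer than 10 UMIs varied, with 19.4% for Igfbp2 and 11.3% for Inmt but 0% for Cxcl14 and Cfd.

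AT1 genes, which mark the flat epithelial cells of the alveolus, stood apart in the control cells. The 5 genes of the list summed to 691 CPM in IL-1β stromal cells, led by Pdpn with 4964 UMIs, and to 1645 CPM in control, led by Ager with 17896 UMIs. None of the 5 was at 0 in either library. In control, 86 of the 852 stromal cells (10.1%, 8.15 to 12.3) held at least 30 UMIs of Ager, Hopx, Aqp5 and Rtkn2 and together 85.0% of the UMIs of these genes, against 3 of the 480 in IL-1β. The control ones had a median of 1 UMI of Col1a2 and Col3a1, against 43 in the other control stromal cells, and 37 of the 86 had none, so their values go against the label. The contrast below was repeated without these barcodes in both libraries, a comparison added after the values were seen. Of 10014 genes tested, it gave 381 at least 2-fold higher (3.80%) and 1010 lower (10.1%), in place of 348 and 1178. Contractile, interferon-stimulated, TGF-β and YAP, and glycolysis and hypoxia genes then had medians of -2.02, -1.67, -1.35 and 0.97. MHC class II genes went from 0 to 4 of 6 higher (Cd74 2.83 times) and MHC class I genes from 1 to 4 of 11. Epithelial genes rose with them: AT2 genes went from 2 to 3 of 7 higher (median 0.39 to 0.92). The epithelial genes of the rule went from 0 to 2 of 5 higher (median -0.31 to 0.91). Cd74 is also a leading gene of the cluster with AT2 genes described below. The medians of the chemokine, growth factor and basement membrane lists turned to 0.24, 0.34 and 0.07.

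IL-1β stromal cells had more Saa3, Mmp3, Mmp12 and Spp1 and less Igfbp2, Ptn and Acta2 than control stromal cells. Among the 10254 genes with at least 100 UMIs over both groups, 348 (3.39%) were at least 2-fold higher and 1178 (11.5%) at least 2-fold lower in CPM, which is what "2-fold" means below. Part of this imbalance is set by the scale: a few abundant genes took a larger share of the IL-1β UMIs, and the median log2 ratio of all genes was -0.35. Scaling by TMM gave 507 higher and 670 lower (43.1% of the called genes higher, against 22.8% in CPM), and median-of-ratios scaling gave 518 and 658 (44.0%). Counts and ratios below are in CPM against 1, unless TMM is named. Under TMM Grem1 also passed 2-fold (log2 ratio 1.32), which in CPM it did not. The levels of every gene tested are shown in the plot of IL-1β against control stromal cells.

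**Figure D1:**
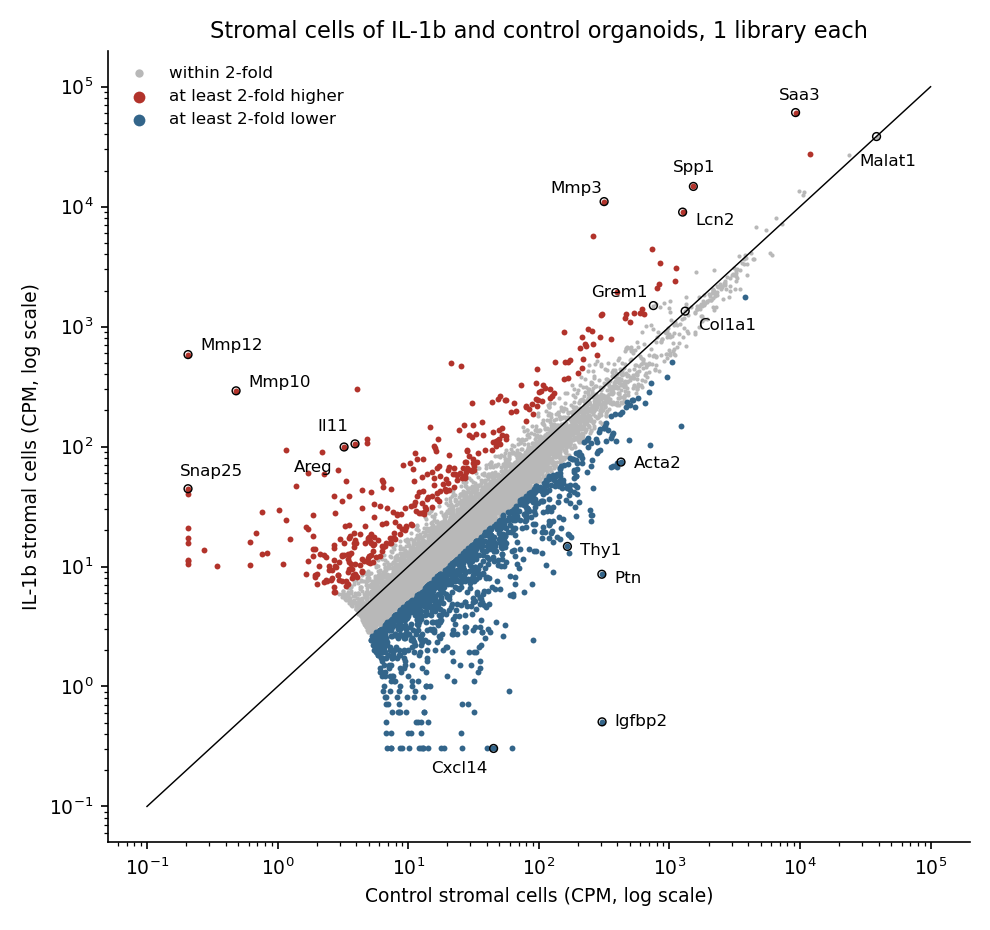
CPM of each gene with at least 100 UMIs in control stromal cells (x axis, log scale) and IL-1β stromal cells (y axis, log scale), 1 library each. The line marks equal levels and levels under 3 UMIs are drawn at 3 UMIs. Mmp12, Mmp10 and Mmp3 lie far above the line and Igfbp2 and Ptn far below it, while Malat1 and Col1a1 lie on it.

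The most abundant transcript of IL-1β stromal cells was Saa3, an acute-phase serum amyloid A protein (chr7:46711998-46715700, minus strand, GRCm38). It reached 60910 CPM against 9254 in control stromal cells, 6.58 times higher (6.54 to 6.62). Several of the other most abundant genes that differed encode matrix or matrix-modifying proteins. Mgp, the matrix Gla protein that inhibits calcification, was at 27307 and 12033 CPM (2.27 times, 2.26 to 2.28). Spp1, osteopontin (chr5:104435118-104441050, plus strand), was at 14752 and 1527 CPM (9.66 times, 9.53 to 9.80). Mmp3, stromelysin 1, was at 11027 and 316 CPM (34.9 times, 33.8 to 35.9), and Timp1, a metalloproteinase inhibitor, at 3385 and 855 CPM (3.96 times, 3.88 to 4.04). Ctsl, a lysosomal and secreted cathepsin, was 6.03 times higher (4429 and 735 CPM) and Mt1, a metallothionein, 2.77 times (3089 and 1115 CPM). Lcn2, the siderophore-binding lipocalin, was 7.14 times higher at 9013 and 1263 CPM. The remaining abundant genes moved little: Malat1 (0.996 times), Fth1 (1.15), Ftl1 (0.982), Eef1a1 (0.973), Tmsb4x (0.816), Igfbp7 (0.694) and Sftpc (0.991, all of it within the epithelial estimate by construction). Grem1, the secreted BMP antagonist among the given markers (chr2:113746164-113758646, minus strand), was at 1498 and 754 CPM, 1.99 times higher (1.94 to 2.04) and so just under 2-fold.

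Mmp12 and Mmp10, both secreted metalloproteinases, ranked highest of the genes higher in IL-1β stromal cells, by the ranking given below. Mmp12, macrophage metalloelastase, had 5765 UMIs in IL-1β stromal cells (585 CPM) and 1 UMI in control stromal cells, a ratio of 8512 whose interval runs from 1527 to 336252 because of that single UMI. Mmp10, stromelysin 2, had 2875 and 7 UMIs (606 times, 294 to 1510). Mmp13, a collagenase, had 283 and 11 UMIs (38.0 times, 20.9 to 77.0), and Mmp8, another collagenase, 163 and 57 UMIs (4.22 times, 3.10 to 5.81). These genes and Mmp3 are neighbours in the metalloproteinase cluster of mouse chromosome 9 (GRCm38, plus strand): Mmp13 at chr9:7272514-7283331, Mmp12 at chr9:7344381-7369499, Mmp3 at chr9:7445822-7455975, Mmp10 at chr9:7502352-7510240 and Mmp8 at chr9:7558456-7568485. The other genes of the cluster were near or at 0, with 57 and 0 UMIs of Mmp1a, 7 and 4 of Mmp27, 1 and 0 of Mmp7, and none of Mmp1b or Mmp20. Outside it, Mmp9, a gelatinase, was at 63.6 and 2.89 CPM (22.04 times), whereas Mmp2 at 1036 and 717 CPM (1.44 times) and Mmp14 (1.81 times) stayed under 2-fold.

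Because these neighbours differed together, the 120 bases before their RefSeq starts (GRCm38.p6, plus strand, 5′ to 3′) are shown with matches to TGANTCA, the letters of the AP-1 motif, in capitals. The motif reads as TGANTCA on the other strand too, so one search covers both strands. The window of Mmp13 is chr9:7272394-7272513, that of the second of 2 RefSeq starts of Mmp12 chr9:7347254-7347373, that of Mmp3 chr9:7445702-7445821 and that of Mmp10 chr9:7502222-7502341.
Mmp13: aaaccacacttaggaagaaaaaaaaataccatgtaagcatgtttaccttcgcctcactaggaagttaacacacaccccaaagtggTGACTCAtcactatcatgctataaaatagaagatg
Mmp12: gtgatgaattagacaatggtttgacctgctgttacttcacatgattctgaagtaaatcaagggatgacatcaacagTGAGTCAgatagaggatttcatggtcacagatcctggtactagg
Mmp3: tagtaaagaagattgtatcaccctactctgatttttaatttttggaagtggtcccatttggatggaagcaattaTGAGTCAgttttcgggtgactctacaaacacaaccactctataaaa
Mmp10: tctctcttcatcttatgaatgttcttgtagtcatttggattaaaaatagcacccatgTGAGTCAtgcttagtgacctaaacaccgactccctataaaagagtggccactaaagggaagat
The match began 35 bases before the start of Mmp13, 44 before that of Mmp12, 46 before that of Mmp3 and 63 before that of Mmp10. The other start of Mmp12 and the start of Mmp8 had no match in a window from 250 bases before to 50 bases after. Of all 32851 RefSeq windows of that size 7.81% held the letters, of the 10146 windows of genes tested 5.17%, of the 325 windows of genes 2-fold higher 14.5% and of the 1148 windows of genes 2-fold lower 7.84%. A match is a string of letters and not evidence of binding.

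Over the metalloproteinase and TIMP list, 7 of 20 genes tested were 2-fold higher and 5 lower, with a median log2 ratio of 0.48 and a summed level of 18725 against 4529 CPM. The 5 lower members were Timp3, a matrix-bound inhibitor (102.3 and 713 CPM, 0.143 times), Timp4 (5.38 and 17.9 CPM), Adam12, Adamts1 and Adamts5 (46.4 and 195 CPM, 0.238 times), so the inhibitors did not move alike. Among cathepsins, plasminogen regulators and related genes, 7 of 17 were higher and 1 lower (median 0.92). The bone-resorbing cathepsin Ctsk was at 813 and 216 CPM (3.77 times), Ctsd at 1282 and 640.5 CPM (2.00 times), and Serpine2, an inhibitor of thrombin and plasminogen activators, at 1269 and 304 CPM (4.17 times). Slpi, a secreted inhibitor of leukocyte proteases, was 18.4 times higher (469 and 25.5 CPM, 16.6 to 20.5).

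Ranked by whichever interval limit lay closest to 1, the 12 genes highest in IL-1β stromal cells were Mmp12, Mmp10, Snap25, Cadm3, Emcn, Car9, Nxph1, Ctla2a, Ndufa4l2, Kng1, Mmp3 and Ly6i. Car9, a hypoxia-induced carbonic anhydrase, had 399 and 3 UMIs (196 times, 66.7 to 956). Ndufa4l2, another hypoxia-induced gene, had 919 and 17 UMIs (79.8 times). Snap25, a membrane fusion protein best known from synapses, had 439 UMIs in IL-1β and 2 in control cells (324 times, 89.2 to 2684). Cadm3, an adhesion molecule, had 208 UMIs and none in control, at least 102.4-fold higher against the limit of 3 UMIs that a count of 0 allows per library, Nxph1, a neurexin ligand, had 155 and 0 (at least 76.3-fold higher) and Kng1, kininogen, 110 and 0 (at least 54.1-fold higher). These limits leave out the counting error of the IL-1β UMIs, and the exact 95% lower limits were 82.5, 61.3 and 43.3. The values of 3 of the 12 rest on other material. Of the 169 Emcn UMIs 167 and of the 2992 Ctla2a UMIs 2903 lay in the 4 barcodes with endothelial genes, without which the log2 CPM ratio of Ctla2a was 1.17, and 85.2% of the Ly6i value was within the epithelial estimate.

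The 12 genes lowest in IL-1β stromal cells were Igfbp2, Tmem178, Ogn, Gdf10, Cxcl14, Inmt, Myoc, Ankrd34b, Wfdc21, Cfd, Ptn and Vit. Igfbp2, an insulin-like growth factor binding protein (chr1:72824503-72852474, plus strand), had 5 UMIs in IL-1β and 4442 in control stromal cells (0.507 and 305 CPM, 0.00166 times, 0.000539 to 0.00388). Ptn, pleiotrophin, a heparin-binding growth factor, had 85 and 4424 UMIs (8.62 and 304 CPM, 0.0284 times). Ogn, a small leucine-rich proteoglycan, had 0 and 585 UMIs, Gdf10, a TGF-β superfamily ligand, 0 and 376, and the chemokine Cxcl14 had 2 and 656. Inmt, a methyltransferase abundant in lung, had 2 and 640 UMIs and Cfd, complement factor D, 1 and 260. After each cell was thinned to 4500 UMIs, Igfbp2 was detected in 127 of 852 control cells (14.9%), Tmem178 in 143 (16.8%), Ogn in 95 (11.2%) and Ptn in 303 (35.6%), and Ptn was detected in 451 (52.9%) without thinning. Part of the control Igfbp2 lay in the AT1-rich barcodes, without which it had 2287 UMIs and a ratio of 0.00296, and Ankrd34b then fell below 100 UMIs and was not compared. In IL-1β cells thinned alike, 12 of 480 had Ptn (2.50%), 1 had Igfbp2 and none had Tmem178 or Ogn, which allows up to 0.766% of cells with a UMI at this depth and sets no limit on cells that express them.

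**Figure D2:**
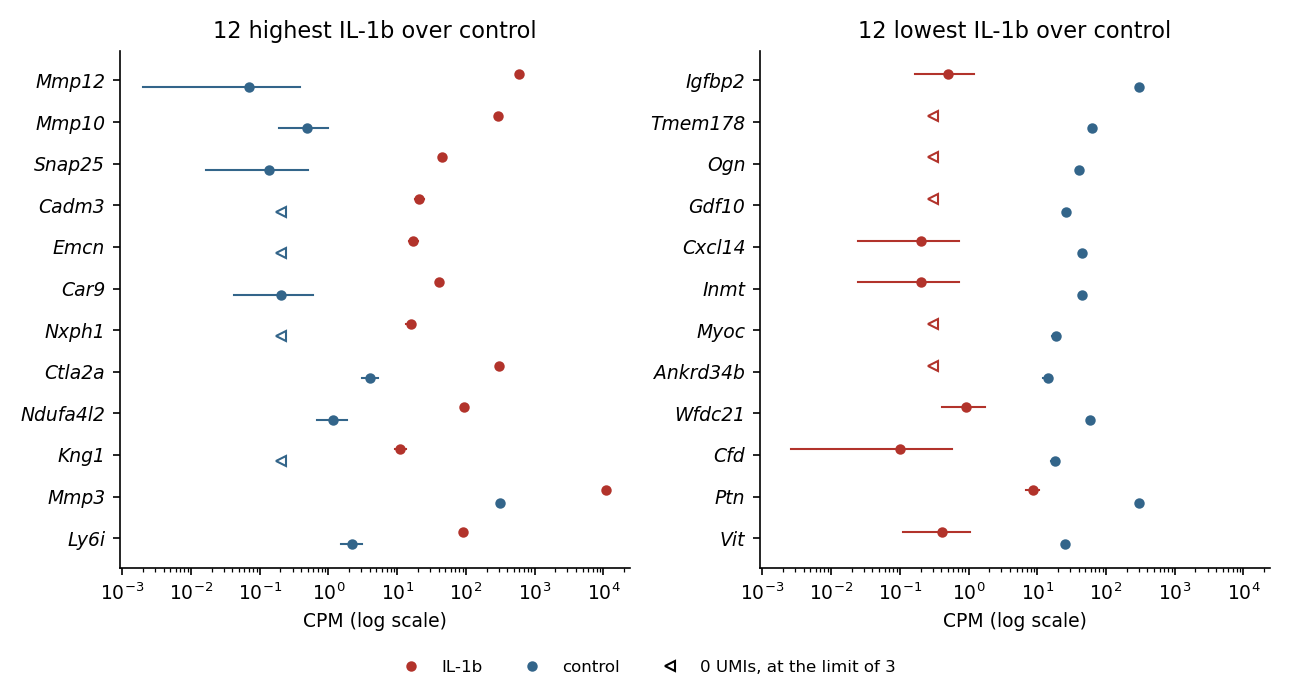
CPM (log scale) of the 12 genes highest (left) and 12 lowest (right) in IL-1β over control stromal cells, ranked as in the text. Points are the 2 libraries with exact 95% Poisson intervals, and open triangles mark 0 UMIs at the limit of 3. Mmp3 is the only one of the 24 above 100 CPM in both.

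Of 12 cytokine and colony-stimulating genes tested, 6 were 2-fold higher and 1 lower (median log2 ratio 0.86, summed level 962 and 310 CPM). Il11, a fibroblast cytokine of the IL-6 family (chr7:4772373-4782859, minus strand), was at 105 and 3.92 CPM (26.9 times, 20.6 to 35.8). Csf3, the granulocyte growth factor, was at 231 and 31.1 CPM (7.42 times), Il6 at 247 and 56.3 (4.38 times, 4.05 to 4.75), Lif at 61.5 and 15.2 (4.05 times) and Tnfsf11, the osteoclast factor RANKL, at 160 and 36.9 (4.32 times), while its decoy receptor Tnfrsf11b was at 1.42 and 6.05 CPM (0.235 times). In the acute-phase, iron and innate defence list 9 of 20 genes were higher and 2 lower (median 0.73, summed level 116766 and 47136 CPM). Saa3 alone, at 60910 and 9254 CPM, made most of the difference of that sum. The higher genes also included Saa1 (7.14 times), Mt2 (1958 and 394 CPM, 4.97 times), Hp, haptoglobin (2405 and 1111 CPM, 2.16 times), and Serping1, the C1 inhibitor (1275 and 467 CPM, 2.73 times). Steap4, a metalloreductase (0.345 times), and Ptx3, a pentraxin (0.111 times), were the 2 lower members.

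Chemokines moved both ways. Of 16 tested, 6 were 2-fold higher and 7 lower (median -0.42). The monocyte attractants Ccl2 (2268 and 826 CPM, 2.75 times), Ccl7 (1089 and 498 CPM, 2.19 times) and Ccl8 (1259 and 298 CPM, 4.22 times) were higher, as were the neutrophil attractants Cxcl1 (817 and 293 CPM, 2.79 times) and Cxcl2 (88.4 and 11.3 CPM, 7.84 times) and the CCR6 ligand Ccl20 (34.4 and 11.3 CPM, 3.03 times). Lower were the interferon-induced Cxcl10 (8.22 and 40.1 CPM, 0.205 times), Ccl5 (1.12 and 22.3 CPM, 0.0501 times), the eosinophil attractant Ccl11 (78.0 and 192 CPM, 0.407 times) and Cxcl14. Cxcl12, the CXCR4 ligand, was at 671 and 1150 CPM (0.584 times) and so short of 2-fold.

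Most genes of the IL-1 receptor family and of the NF-kB list were within 2-fold, as were most of all genes tested (3.39% higher and 11.5% lower). Of the 12 genes tested in the IL-1 receptor family, 1 was 2-fold higher and none lower: Il1rl1, the IL-33 receptor, was at 109 and 44.3 CPM (2.46 times), and Il1r1 at 38.5 and 38.1 (1.01 times, 0.884 to 1.15). Of 22 NF-kB feedback and target genes, 2 were higher and none lower (median 0.12), and Nfkbia, the inhibitor IkBα, was at 250 and 237 CPM (1.05 times). Those 2 were Ptgs2, cyclooxygenase 2 (526 and 173 CPM, 3.04 times), and Tnip3 (13.0 and 0.825 CPM, 15.7 times). In the prostaglandin list 3 of 8 genes were higher, among them Ptges, the prostaglandin E synthase (339 and 94.8 CPM, 3.58 times), and 1, the receptor Ptger4, was lower (0.344 times).

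In the growth factor list, which also holds Spp1, Ctgf and Gdf10, 7 of 21 genes were 2-fold higher and 5 lower (median -0.15, 0.18 with TMM). Without the AT1-rich barcodes 7 were higher and 3 lower of 20. The epidermal growth factor receptor ligands Areg (99.2 and 3.23 CPM, 30.7 times, 22.9 to 42.1) and Ereg (231 and 64.5 CPM, 3.59 times) were higher and Hbegf was lower (0.319 times). Hgf, the ligand of Met, was at 68.6 and 17.2 CPM (3.99 times, 3.45 to 4.63), Angptl4 at 325 and 73.6 (4.42 times) and Igf1 at 119 and 356 (0.334 times). Fgf7 (213 and 256 CPM, 0.832 times) and Fgf10 (54.0 and 59.8 CPM, 0.903 times), both ligands of Fgfr2b on alveolar epithelium, were within 2-fold. Areg was also found in 33.1% of IL-1β epithelial barcodes after thinning, against 11.9% of the IL-1β stromal cells. In the BMP and TGF-β list 4 of 21 genes were higher and 5 lower (median -0.37): Bmp2 was at 84.1 and 29.4 CPM (2.86 times) and Bmp4 at 6.19 and 76.7 (0.0807 times), Tgfb1 was 2.71 times and Inhba 2.11 times higher, and the BMP target Id1 was at 56.6 and 193 CPM (0.293 times). Of 6 insulin-like growth factor binding proteins, Igfbp5 was higher (897 and 157 CPM, 5.72 times) and Igfbp2 lower.

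Of the stromal gene lists, contractile genes had the lowest median. Of 13 tested, 11 were 2-fold lower and none higher (median log2 ratio -1.99, summed level 1269 and 3065 CPM). Acta2, smooth muscle actin (chr19:34241090-34255590, minus strand), was at 74.3 and 426 CPM (0.174 times, 0.161 to 0.188), Tagln at 33.6 and 174 (0.193 times), Myl9 at 17.4 and 119 (0.146 times) and Mylk, the kinase of myosin light chain, at 29.7 and 246 (0.121 times). A single IL-1β cell weighed on these values: without it Acta2 was at 22.5 CPM in IL-1β cells (0.0528 times, 0.0460 to 0.0604), Tagln at 12.6 (0.0724 times) and Myl9 at 4.50 (0.0378 times), and the contractile median was -2.75 with 11 genes lower. TGF-β and YAP targets followed the same direction, with 9 of 14 lower and none higher (median -1.35). Ctgf was at 18.4 and 169 CPM (0.108 times) and Cyr61 at 68.4 and 372 (0.184 times). In the Wnt list 10 of 16 genes were lower and 1 higher (median -1.36). The Wnt inhibitors Sfrp1 (34.4 and 203 CPM, 0.170 times), Dkk2 (15.9 and 128 CPM, 0.125 times) and Nkd2 (10.3 and 114 CPM, 0.0907 times) and the Wnt target Axin2 (0.332 times) were lower, and the 1 higher gene was another secreted inhibitor, Sfrp2 (213 and 80.1 CPM, 2.66 times). With TMM scaling the medians of the contractile, TGF-β and YAP, and Wnt lists were -1.66, -1.02 and -1.03.

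Interferon-stimulated genes were lower in IL-1β stromal cells, 18 of 26 by 2-fold and none higher (median -1.65, -1.32 with TMM). Isg15 was at 24.96 and 153 CPM (0.163 times), Ifit3 at 19.1 and 124 (0.154 times) and Iigp1 at 35.6 and 160 (0.222 times), while the most abundant member, Ifitm3, was at 2240 and 2671 (0.838 times). The share of cells with an Isg15 UMI after thinning was 7.08% (4.95 to 9.76) in IL-1β and 28.1% (25.1 to 31.2) in control stromal cells. Glycolysis and hypoxia genes showed the opposite direction, with 12 of 24 higher and none lower (median 1.01, 1.34 with TMM, summed level 8527 and 4466 CPM). The glucose transporter Slc2a1 was at 243 and 54.8 CPM (4.44 times), lactate dehydrogenase Ldha at 1183 and 460 (2.57 times), pyruvate kinase Pkm at 1307 and 532 (2.46 times), the lactate exporter Slc16a3 at 22.02 and 3.50 (6.28 times) and Hif1a, the hypoxia-inducible factor itself, at 214 and 121 (1.78 times). Slc2a1 was seen in 60.0% of thinned IL-1β cells and 20.3% of thinned control cells. Plin2, which coats lipid droplets, was at 446 and 97.4 CPM (4.58 times), and Slc7a11, the cystine transporter, at 101.8 and 15.7 (6.50 times).

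Structural matrix changed by gene rather than by list. Of 12 interstitial collagen genes tested 2 were 2-fold higher and 3 lower (median -0.14, 0.19 with TMM), of 12 basement membrane genes 1 and 3 (-0.19, 0.15 with TMM), and of 32 matrix glycoprotein, elastic fibre and crosslinking genes 6 and 8 (-0.04, 0.29 with TMM), so the sign of these medians turned with the scaling. Col1a1 was at 1347 and 1321 CPM (1.02 times, 0.997 to 1.04). Col5a3 (4.68 times) and Col6a3 (372 and 167 CPM, 2.22 times) were the higher collagens, and Col8a1 (26.8 and 254 CPM, 0.105 times), Col11a1 (0.0731 times) and Col12a1 (0.275 times) the lower ones. Fibronectin, Fn1, was at 689 and 229 CPM (3.01 times) and the collagen crosslinker Loxl2 was 2.54 times higher. The elastic fibre genes Eln (18.7 and 169 CPM, 0.111 times), Fbln5 (24.05 and 250 CPM, 0.0961 times) and Ltbp1 (17.5 and 105 CPM, 0.166 times) and the proteoglycan Fmod (0.0457 times) were all lower.

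Genes used to name fibroblasts gave 1 higher and 6 lower of 17 (median -0.51). Thy1, a surface glycoprotein of many fibroblasts, was at 14.7 and 166 CPM (0.0888 times) and Cd34, a mark of adventitial fibroblasts and of endothelium, at 26.7 and 1.86 (14.4 times). Pdgfra was at 131 and 186 CPM (0.7004 times, 0.655 to 0.749), and Tcf21, a lipofibroblast factor, had no UMI in either group. Fibroblast transcription factors gave none higher and 10 of 22 lower (median -0.96), including Tbx2 (0.157 times) and Osr1 (0.153 times). Lipofibroblast genes gave 1 higher, Plin2, and 5 of 12 lower (median -0.61).

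The shares in the remaining lists stand beside 3.39% of all genes higher and 11.5% lower. The counts were, for p53 targets and senescence (0 higher and 4 lower of 13, median -0.73), ER stress and ATF4 targets (4 and 1 of 17, 0.07), antioxidant genes (1 and 0 of 15, 0.10), MHC class I (1 and 0 of 11, 0.17), MHC class II (0 and 0 of 6, -0.24, both with more genes higher without the AT1-rich barcodes, as were the AT2 and epithelial rule genes), dissociation and immediate early genes (1 and 5 of 18, -0.29), adhesion and integrin genes (1 and 2 of 14, -0.13), lipid handling (1 and 2 of 13, -0.23), smooth muscle and pericyte genes (1 and 1 of 5, -0.78) and cartilage and bone genes (0 and 0 of 2, -0.80, summed level 46.7 and 89.6 CPM). Pdpn, kept in the AT1 list and also a fibroblast activation marker, was at 504 and 158 CPM (3.19 times), while the other 4 AT1 genes were lower (list median -3.04), Ager at 0.122 times. Without the AT1-rich barcodes 3 genes of this list were tested, with 1 higher and 0 lower (median -0.42).

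**Figure D3:**
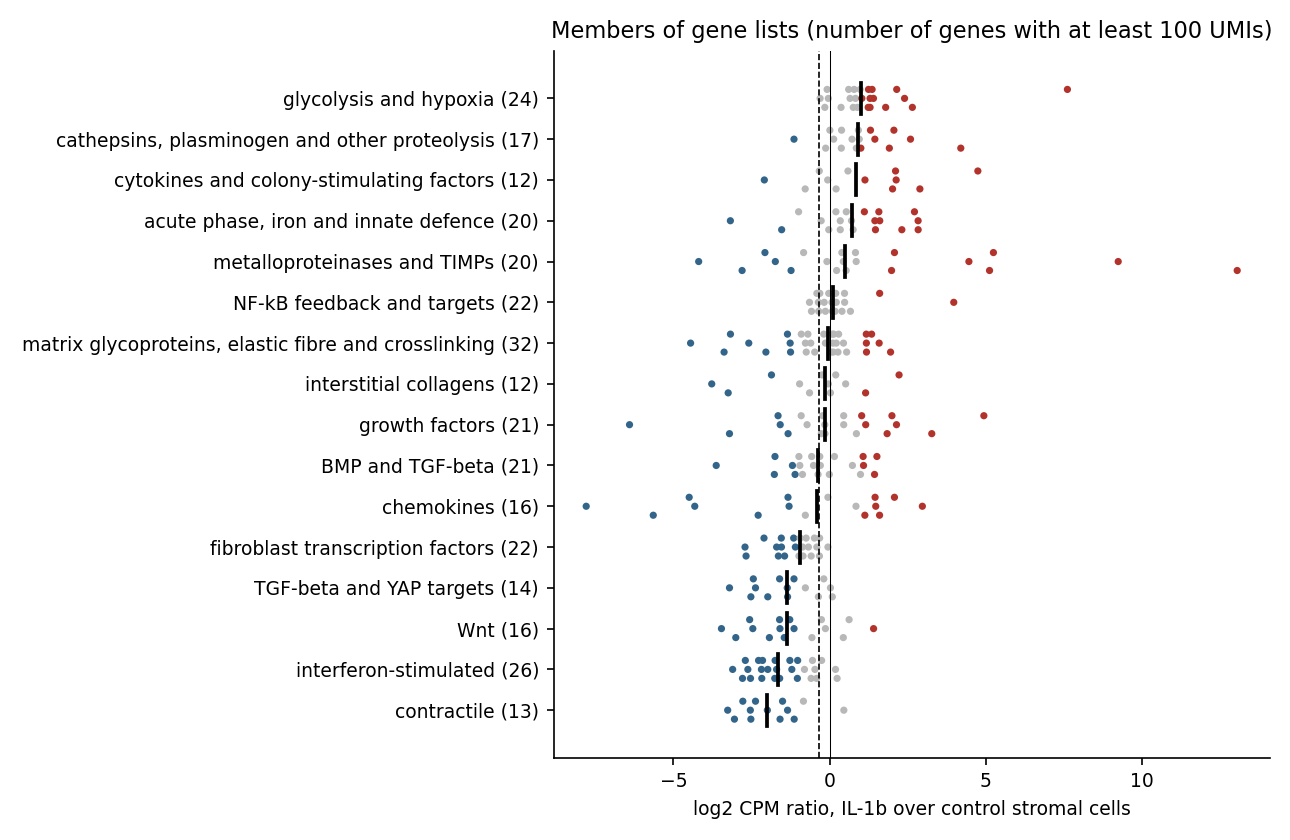
Log2 ratio of CPM, IL-1β over control stromal cells, for the genes tested (points, red or blue past 2-fold and grey within it) of 16 lists, with the number of genes after each name. Short bars mark each list's median, the solid line 0 and the dashed line the median of all 10254 genes at -0.35. Contractile and interferon-stimulated genes lie mostly below -1, and glycolysis and hypoxia genes lie mostly above 0.

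The cells of the IL-1β library also varied among themselves. After thinning each cell to 4500 UMIs, Saa3 had a median of 191.5 UMIs per IL-1β stromal cell, with 27 at the 10th and 566.5 at the 90th percentile and 1271 in the highest cell. The control median was 9. Mmp3 had a median of 37 (3 to 135 over the same percentiles, highest 412), against a control median of 0, and 98.1% of IL-1β cells had it against 32.5% of control cells. Spp1 had a median of 40 (4 to 173.1), and a control median of 1. Grem1 was more even, with a median of 6 (1 to 13.1) and 94.2% of cells, against 61.3% in control. Saa3 was seen in 100% of IL-1β stromal cells, and also in 100% of IL-1β epithelial barcodes and 95.3% of control stromal cells. Mmp3 was also seen in 75.3% and Spp1 in 75.1% of IL-1β epithelial barcodes, where their levels were 359 and 359.6 CPM, so a share of cells with a UMI is not by itself a share of cells that express the gene.

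Cytokines were found in smaller shares of cells than the metalloproteinase Mmp3. After thinning, Tnfsf11 was seen in 41.0% of IL-1β and 12.2% of control stromal cells, Ereg in 39.4% and 11.03%, Csf3 in 39.0% and 6.46%, Hgf in 29.2% and 6.69%, Il6 in 26.2% and 8.92%, and Il11 in 11.04% and 1.53%. In IL-1β epithelial barcodes the same genes reached between 0.581% for Hgf and 3.72% for Ereg. The 10 genes with the highest variance-to-mean ratio over IL-1β stromal cells were Malat1 (240), Ctla2a (211), Saa3 (198), Mgp (101), Spp1 (99.8), Mmp12 (80.7), Slpi (72.3), Sftpc (67.6), Mmp3 (65.9) and Fth1 (60.3), where the median over 914 genes with a thinned mean of at least 0.5 UMI was 1.38.

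**Figure D4:**
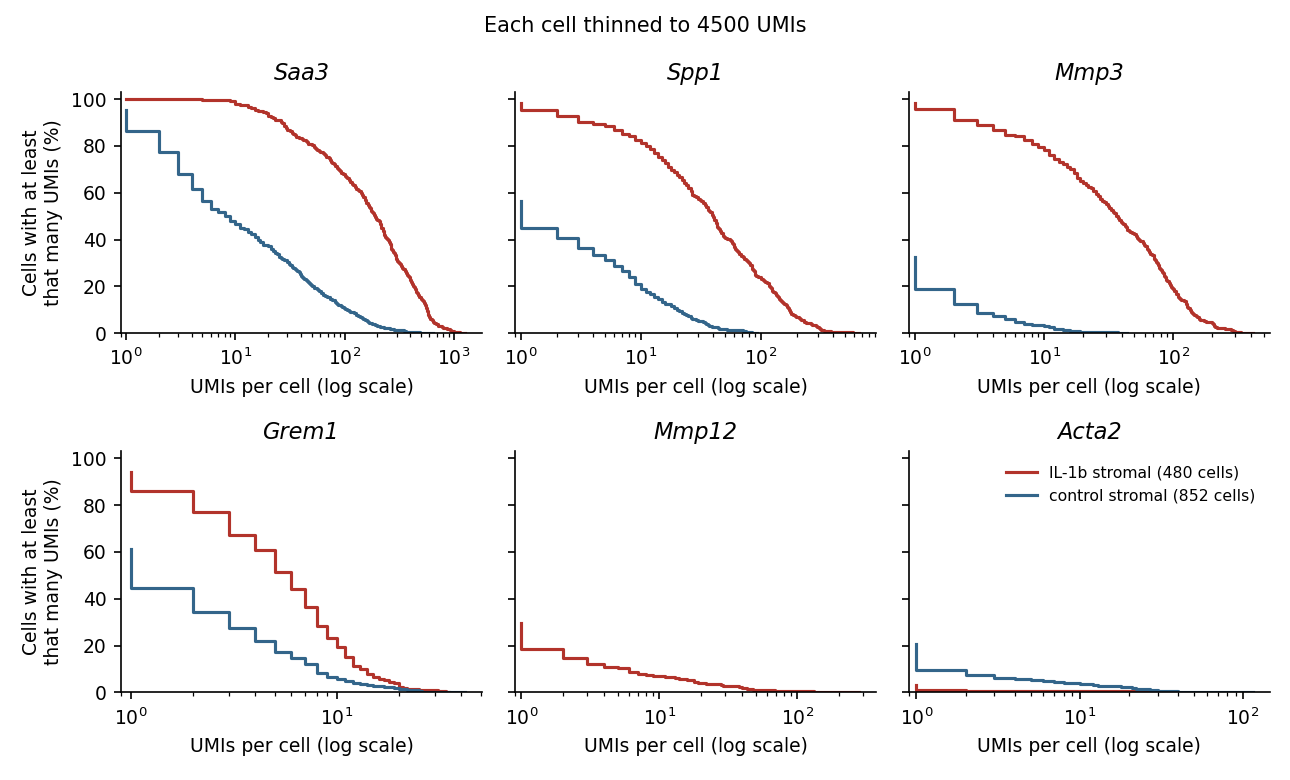
Share of stromal cells (y axis, percent) with at least the number of UMIs on the x axis (log scale), after each cell was thinned to 4500 UMIs, for 6 genes in IL-1β (480, red) and control (852, blue) cells. The Saa3, Spp1, Mmp3 and Grem1 curves start higher in IL-1β than in control cells, Mmp12 starts at 29.8% with none in control, and Acta2 starts at 3.12% in IL-1β and 20.8% in control cells.

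Mmp12 was present in part of the IL-1β stromal cells and, with 1 UMI in all, nearly absent from control ones. After thinning, 143 of 480 IL-1β cells had it (29.8%, 25.7 to 34.1), against 0 of 852 control cells, and 8.33% of IL-1β epithelial barcodes. Without thinning it was seen in 234 IL-1β stromal cells (48.8%). Its UMIs were uneven: 91 cells had exactly 1 UMI, 63 had at least 10, 17 had at least 100, the highest cell had 1146 (19.9% of all 5765) and the 24 highest cells held 77.2%. Cells with 1 UMI in this split cannot be told apart from cells that picked up free RNA.

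The 234 cells with Mmp12 (median 15898 UMIs) were compared with the 246 without (median 12939). Of 7389 genes with at least 100 UMIs, 29 were 2-fold higher with Mmp12 (0.392%) and 49 lower (0.663%), and the median log2 ratio of all genes was -0.02. The 10 genes highest with Mmp12 were Gap43, Mmp10, Sfrp2, Cd34, Ifit1, Il1rl1, Penk, Pla2g7, Slpi and Bmp2. Gap43, a growth-cone protein, was at 58.3 CPM with and 7.94 without (7.34 times, 5.19 to 10.7), Mmp10 at 439 and 119 (3.69 times, 3.36 to 4.06), Sfrp2 at 319 and 88.7 (3.59 times), Cd34 at 41.0 and 9.92 (4.13 times), Il1rl1 at 154 and 55.8 (2.76 times) and Bmp2 at 117 and 45.2 (2.59 times). Il11 was at 142 and 62.2 CPM (2.28 times) and Mmp8 at 23.5 and 8.38 (2.80 times). Penk, the enkephalin precursor, was 2.46 times higher, but when cells were split on a UMI left after thinning (143 against 337 cells) it was at 786 and 1002 CPM (0.784 times). Gap43, Mmp10 and Sfrp2 were then 9.19, 8.58 and 8.50 times higher, and Cd34 fell to 2.59 times.

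Lowest with Mmp12 were Lmcd1, Acta2, Tagln, Ctla2a, Myl9, Wfdc17, Rnd1, Ctla2b, Emcn and Cyr61. Acta2 was at 5.83 CPM with and 155 without Mmp12 (0.0377 times, 0.0254 to 0.0540), Tagln at 3.38 and 69.0 (0.0490 times), and Lmcd1, a LIM-domain protein, had 0 and 108 UMIs. Wfdc17, a small secreted antiprotease-like protein, was at 28.9 and 264 CPM (0.110 times), but 0.328 times when 3 Mmp12 UMIs were asked for and 0.304 times when split after thinning. Contractile genes gave 0 higher and 4 lower of 11 (median -0.76) and TGF-β and YAP targets 0 and 6 of 13 (median -0.52). The Acta2 and Tagln values rest on few cells: without the 5% of cells with most UMIs the ratios were 0.139 and 0.151. Most UMIs of Ctla2a, Ctla2b (179 of 210) and Emcn came from the 4 barcodes with endothelial genes.

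Acta2 was the rarer of the pair. After thinning, 15 of 480 IL-1β stromal cells had it (3.12%, 1.76 to 5.10), against 177 of 852 control cells (20.8%, 18.1 to 23.7), 0.930% of IL-1β and 6.59% of control epithelial barcodes. Tagln went the same way, in 2.50% and 12.4% of stromal cells. Without thinning Acta2 was seen in 35 IL-1β cells (7.29%) and 329 control cells (38.6%), and 25 of those 35 had exactly 1 UMI. A single IL-1β cell held 512 of the 732 Acta2 UMIs (69.9%). Acta2 and Mmp12 were both seen in 19 cells, Mmp12 alone in 215, Acta2 alone in 16 and neither in 230. Among thinned cells, 4 of the 143 with Mmp12 had Acta2 (2.80%) and 11 of the 337 without (3.26%), shares whose difference is within counting error. When IL-1β and control stromal cells were compared only among cells with an Acta2 UMI in each library, 4 of 13 contractile genes were 2-fold lower and none higher (median -0.78), beside 11.8% lower, 2.22% higher and a median of -0.25 over all 7421 genes tested there. This value rested on the single cell, without which 10 of 13 were lower and none higher (median -1.93), or 9 of 12 when Acta2 itself was left out (median -1.79), beside 12.4% of all genes lower, 2.20% higher and a median of -0.27. Only among cells without one, 6 of 10 were lower and none higher (median -1.48), beside 11.8% of all genes lower, 3.45% higher and a median of -0.37. Cells were picked here by a gene of the list.

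The 35 cells with Acta2 (median 28899 UMIs) against the 445 without (median 13863) gave 106 of 7389 genes 2-fold higher (1.43%) and 168 lower (2.27%), with an all-gene median of 0.07. When 3 Acta2 UMIs were asked for the counts were 1021 and 845, and when cells were split after thinning 700 and 562. The groups differ in depth, and 35 cells include the 1 with most Acta2, without which 63 genes were higher. The 10 highest were Lmcd1, Tagln, Myl9, Ccl20, Wisp2, Ctgf, Tslp, Cryab, Mfap5 and Prelp. Tagln was at 261 CPM with and 2.19 without Acta2 (119 times, 74.9 to 200.3), Ctgf at 97.0 and 7.51 (12.9 times), Wisp2 at 107 and 7.27 (14.7 times), Ccl20 at 218 and 9.01 (24.2 times) and Tslp, an epithelial and stromal alarmin, at 82.0 and 6.70 (12.2 times). Without the cell with most Acta2 UMIs the ratios were 42.7 for Tagln, 10.2 for Ctgf, 11.4 for Wisp2, 20.1 for Ccl20 and 12.9 for Tslp, but 1.65 for Cryab and 1.79 for Prelp, 2 genes that were 6.02 and 5.82 times higher with it. Mfap5 went from 5.89 to 3.63 times, and Lmcd1 and Myl9 then had fewer than 100 UMIs and were not compared. Contractile genes gave 6 higher and none lower of 10 (median 1.07) and TGF-β and YAP targets 5 and 1 of 12 (median 0.66). Among other genes, the matricellular Thbs1 was at 1842 and 463 CPM (3.98 times) and Timp3 at 325 and 71.5 (4.55 times).

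Lower with Acta2 were Ctla2a, Wfdc17, Crabp1, Emcn, Ctla2b, Nxph1, Tac1, Csf3, Apoe and Mmp12. Crabp1, a retinoic acid binding protein, was at 7.53 CPM with and 131 without Acta2 (0.0576 times), although 0.474 times when the limit on cell cycle UMIs was dropped. It was at 209 CPM (127 UMIs) in the Acta2-rich cluster described below, where only 1 of the 15 cells had at least 10 of these UMIs. Csf3 was at 68.6 and 253 CPM (0.271 times) and Mmp12 at 204 and 638 (0.320 times, 0.280 to 0.364). When 3 Acta2 UMIs were asked for (7 cells), Csf3 was at 0 CPM with Acta2 and Mmp12 was 0.0119 times. Split after thinning, Csf3 was 0.0999 times and Mmp12 0.385 times. Mmp10 was at 105 and 317 CPM (0.332 times) and Il11 at 38.5 and 115 (0.336 times).

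To see whether the genes above lay in the same cells, the 480 cells were clustered on their own, a step added after the values above were known. Clusters are described by their leading genes, with no test, since the same counts formed them. Of 5 clusters, the largest (cluster 1, 191 cells, 39.8%) had a median of 7750 UMIs and was led by Dnm3os, BC005561, Lrfn5 and C4b, with Malat1 at 86412, Mmp3 at 19459 and Col1a1 at 2805 CPM. Cluster 2 (173 cells, 36.0%) had a median of 29024 UMIs and the highest Mgp (38041 CPM) and Saa3 (70446 CPM), with Ccl8 at 1730 and Cxcl12 at 883 CPM, and held the 4 barcodes with endothelial genes. Depth separates these clusters, and its part in them was not tested.

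Cluster 3 (72 cells, median 16020 UMIs) held most of the UMIs of several genes found in few cells. With 15.8% of all UMIs it held 93.6% of those of Il11 (623 CPM), 88.5% of Mmp10 (1631 CPM), 87.2% of Sfrp2 (1172 CPM), 85.9% of Areg (539 CPM), 81.5% of Crabp1 (596 CPM), 74.7% of Mmp12 (2761 CPM) and 54.1% of Ereg (790 CPM). Of the Il6 UMIs it held 37.4% (583 CPM), and cluster 2, with 56.1% of all UMIs, held 47.1% (207 CPM). Cluster 3 held 1.64% of the UMIs of Mgp, at 2838 CPM. Mmp12 was seen in 76.4% of its cells without thinning, against 46.1%, 45.1%, 31.0% and 26.7% of clusters 1, 2, 4 and 5, and it contained 32 of the 63 cells with at least 10 Mmp12 UMIs. Spp1 (13991 CPM), Mmp3 (13956 CPM) and Grem1 (1670 CPM) were near their levels over all IL-1β stromal cells.

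Cluster 5 (15 cells, 3.12%, median 27495 UMIs) held 85.1% of Acta2 UMIs (1025 CPM), 72.2% of Tagln (393 CPM), 77.9% of Ctgf (232 CPM) and 79.6% of Ccl20 (444 CPM), with Sfrp1 at 378, Col8a1 at 285 and Grem1 at 2830 CPM. The cell with 512 of the 732 Acta2 UMIs and 208 of the 331 Tagln UMIs was one of them. Without it the cluster held 111 of 220 Acta2 UMIs and 31 of 123 Tagln UMIs, of which cluster 2 held 99 and 82, while 110 of 150 Ctgf, 210 of 279 Ccl20, 214 of 323 Sfrp1 and 173 of 264 Col8a1 UMIs were in cluster 5. Mmp12 (6.58 CPM), Mmp3 (2223 CPM) and Spp1 (3623 CPM) were at their lowest of the 5 clusters there. Cluster 4 (29 cells, 6.04%) was led by Lyz1, Slc34a2, Pigr and Cadm1, with the AT2 genes Cldn18, Cd74, Sftpa1 and Lamp3 also among its 15 leading genes, and with Sftpc at 27450 CPM and 41.8% of all Slc34a2 UMIs in 4.20% of all UMIs, beside Mmp3 at 6939 and Spp1 at 7021 CPM. Whether these are droplets with both cell types was not tested. With the random seed of the Leiden step changed from 0 to 1 on the same neighbor graph, all 5 clusters were identical. At a resolution of 0.3 clusters 2 and 5 merged and the other 3 were identical. At 1.0, which gave 9 clusters, clusters 4 and 5 were identical and 60 of the 72 cells of cluster 3 stayed together. Clusters 1 and 2 broke up there, with 87 of 191 and 95 of 173 cells in their best matches.

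**Figure D5:**
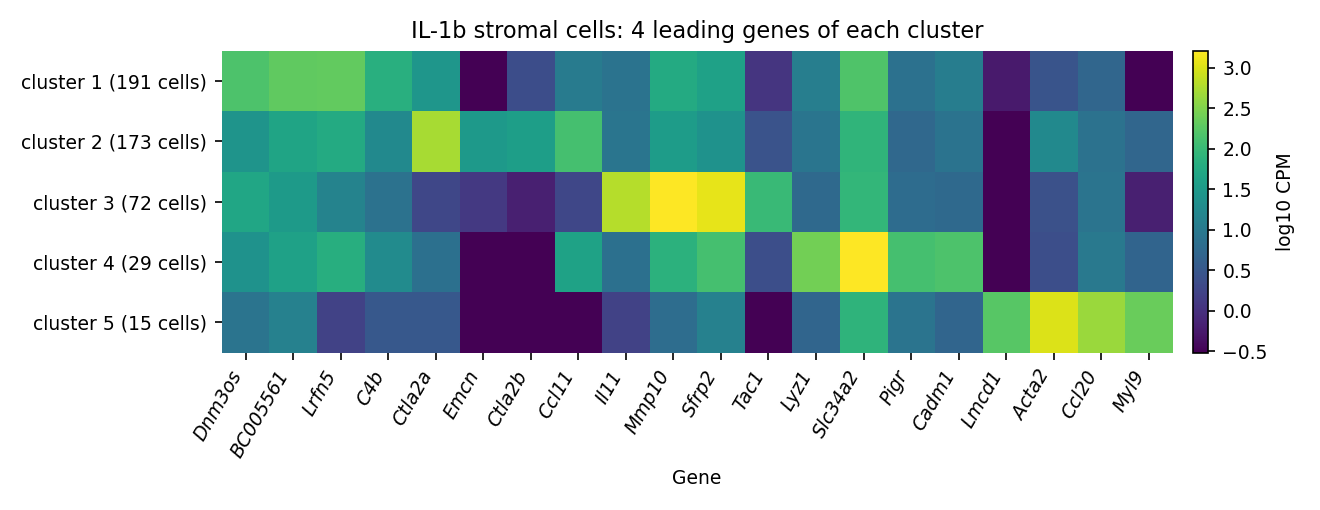
Level (colour, log10 CPM) of the 4 leading genes of each of the 5 clusters of IL-1β stromal cells, with the number of cells in each row label. Il11, Mmp10 and Sfrp2 are highest in cluster 3 (72 cells), Slc34a2 and Lyz1 in cluster 4 (29 cells) and Lmcd1, Acta2, Ccl20 and Myl9 in cluster 5 (15 cells).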

How the data were processed

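Droplet-based 3' single-cell libraries of 1 control and 1 IL-1β organoid culture were used. The authors deposited raw UMI counts of 27998 genes per barcode, made with Cell Ranger. The submitters' processing notes name mm9 and GRCm38, without saying which file each belongs to, and Scanpy 1.3.6, and the study's methods give GRCm38 for single-cell data. In the deposited counts no cells have been removed by the study's cutoffs, its doublet scores or its step that sets stromal cells aside, and no doublet caller was run here. Barcodes held at least 4605 (control) and 4975 (IL-1β) UMIs.

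Barcodes were selected by the rule given in the results. Members and gene lists were chosen with earlier results of these data known, and lists are described by counts and medians only. Counts were summed per group and scaled to CPM, with exact Poisson intervals for levels, exact conditional binomial intervals for ratios and Clopper-Pearson intervals for shares. A count of 0 was taken to allow 3 UMIs per library. Genes with at least 100 UMIs over the groups compared were kept and a ratio of at least 2 or at most 0.5 counted as 2-fold. Named genes were the 15 most abundant, the 12 highest and 12 lowest of the contrast and the 10 highest and 10 lowest of each split, ranked by the interval limit nearest 1, the 10 most variable, and list members highest in CPM or farthest from 1. Mitochondrial, ribosomal-protein, predicted, haemoglobin and X-inactivation genes and the 14 genes of the rule were left out of the ranking. For shares and quantiles each cell was thinned to 4500 UMIs. Clusters used 1500 variable genes, 20 principal components, 15 neighbors, cells scaled to 10000 and Leiden at 0.6.

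The calculation was run on simulated Poisson totals per gene and group, drawn at the pooled levels of the cells compared. For IL-1β and control cells (10261 genes), 100% of 191 changed genes were recovered, 0% of unchanged genes passed 2-fold and 95.2% of intervals held the true ratio. The values were 100% of 180, 0.0139% and 95.5% for the Mmp12 split (7355 genes) and 99.0% of 195, 0.600% and 95.7% for the Acta2 split (7356 genes). All planted changes were larger than 2-fold. The simulation had no cells and no variation among them, so it checks the arithmetic under counting error only. It does not show how well the intervals cover real counts, which vary far more among cells. Tools were Python 3.11.15, numpy 2.4.6, scipy 1.17.1, pandas 2.3.3, scanpy 1.11.5, leidenalg 0.10.2, matplotlib 3.10.9 and R 4.3.3 with edgeR 4.0.16 (TMM factors only). Positions are those of GENCODE mouse M21 (GRCm38), in which all 608 gene IDs looked up were found, and promoter sequences are RefSeq's on GRCm38.p6. Alternatives varied the rule, depth, cells, scaling and count minimum.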

Additional observations from a re-analysis of the deposited data

Results flagged for a closer look

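Mmp12 also appeared outside the stromal cells. After thinning to 4500 UMIs, 215 of the 2580 IL-1β epithelial barcodes had a UMI of it (8.33%, 95% Clopper-Pearson interval 7.30 to 9.47), against 0 of 1229 control epithelial barcodes and 29.8% of IL-1β stromal cells. Without thinning the share was 19.8%, against 1 of the 1229 control epithelial barcodes (0.0814%). Mmp12 was singled out because these barcodes enter no comparison of the stromal cells and no control epithelial barcode had it after thinning. Free RNA from stromal cells and expression in epithelial cells cannot be told apart from these values.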

How the results depend on the processing

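The IL-1β and control counts kept within 1.5 times of 348 higher and 1178 lower genes under changes of the stromal ratio, cell cycle limit, depth and outlying cells. Through 20 alternatives 113 genes were followed (2220 values), and none that was at least 2-fold in the main contrast changed direction. A change of sign in a gene within 2-fold was not counted. Higher genes numbered 165 with only cells that had Acta2, 626 with a minimum of 20 UMIs and 2309 with 1 UMI. Lower genes numbered 670 with TMM, 658 with median-of-ratios scaling, and 1895 and 3083 with the smaller minimums. With Mmp12, 48 genes were higher and 78 lower when 3 UMIs were asked for, 82 higher when split after thinning, 149 and 221 with a minimum of 20 UMIs, and 26 lower without the 5% deepest cells. Penk turned to -0.35 (log2) when split after thinning. With Acta2 the counts were 1021 and 845 (3 UMIs), 700 and 562 (after thinning), 317 and 729 (minimum of 20), 68 higher at a stromal ratio over 10 and 63 higher without the cell with most Acta2, so the size of this split is not stable. Shares with Mmp12 were 48.8% unthinned, 23.8% with 3 UMIs and 24.5% at a stromal ratio over 1. Shares with Acta2 were 7.29% and 1.46% unthinned at 1 and 3 UMIs in IL-1β cells, and 38.6%, 12.4% and 17.9% (ratio over 1) in control cells. The cause of these moves was not tested, apart from fewer cells or other genes entering by construction. No paired analysis was possible because each condition had 1 library. Doublets and free RNA limit shares of cells, and the alternatives without endothelial, leukocyte or AT1-rich barcodes or without single cells were chosen after seeing the data.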
